A study of Mus musculus with 2 samples.

Results

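The cells described here are mouse thymocytes at a double-negative (DN) stage that carried transcripts of Myl10 or Gm4632 and few transcripts of Ptcra. A cell barcode was counted in when it had at least 500 genes, at least 1000 unique molecular identifiers (UMIs) and at most 10% mitochondrial UMIs. It also had to hold at least 1 UMI of Myl10 or Gm4632, at most 2 of Ptcra, 0 of Kit, Cpa3 and Foxp3, at most 1 of Cd8a plus Cd8b1, and at most 2 of the 4 cell cycle genes Rrm2, Top2a, Mki67 and Ube2c together. These limits took 1272 of 14638 barcodes that passed the quality limits. The WT library gave 627 of 7137 and the cKO library 645 of 7501. The cells were thus chosen by the measured UMIs of 12 genes, whose levels are given only as a description.

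Single-cell RNA was measured by droplet sequencing of 3′ transcript ends in thymus cells of 1 WT library and 1 cKO library, the latter from SETDBf/fCD4-Cre mice, in which a floxed SETDB gene is paired with Cre recombinase driven by CD4 sequences. Both suspensions had been enriched with anti-CD25 beads, so cells with CD25, the product of Il2ra, were favoured in both. The labels do not say whether Setdb1 or Setdb2 carries the floxed allele, nor how many mice, of what age, were pooled. With 1 library a genotype there is no replicate and no test between genotypes. Intervals below are exact 95% binomial intervals that cover counting error only.

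DN thymocytes pass from early progenitors that express Kit, through a commitment stage at which CD25 is present, to a stage at which the T cell receptor β, γ and δ genes are rearranged by the RAG recombinase. Notch1 signalling drives this progress and switches on target genes such as Hes1, Dtx1 and Ptcra. Ptcra encodes the pre-TCR α chain, which pairs with a rearranged β chain at β-selection. A CD4-driven Cre is generally held to act late in this sequence, around the passage to the CD4 and CD8 double-positive stage.

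The genes used to bring the cells in and to hold others out have the following promoters, shown because their levels define the cells. Each run covers 250 bases before and 50 bases after an annotated start in RefSeq, GRCm38.p6, 5′ to 3′ on the gene's strand. Myl10 encodes a myosin regulatory light chain, has 3 starts in the table, and the first lies at chr5:136692896-136693195, plus strand. Gm4632 is a predicted gene with a start at chr14:79199141-79199440, minus strand. The start of Ptcra lies at chr17:46763663-46763962, minus strand. Capitals mark matches on either strand to GTGGGAA, a core sequence of sites bound by the Notch partner RBPJ, and to CAGCTG, an E-box bound by basic helix-loop-helix factors.
Myl10: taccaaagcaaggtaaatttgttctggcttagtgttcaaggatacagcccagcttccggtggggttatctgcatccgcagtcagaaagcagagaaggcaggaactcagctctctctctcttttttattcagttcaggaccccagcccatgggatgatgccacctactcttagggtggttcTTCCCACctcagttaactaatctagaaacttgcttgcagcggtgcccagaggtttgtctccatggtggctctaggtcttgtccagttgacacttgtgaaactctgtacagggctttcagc
Gm4632: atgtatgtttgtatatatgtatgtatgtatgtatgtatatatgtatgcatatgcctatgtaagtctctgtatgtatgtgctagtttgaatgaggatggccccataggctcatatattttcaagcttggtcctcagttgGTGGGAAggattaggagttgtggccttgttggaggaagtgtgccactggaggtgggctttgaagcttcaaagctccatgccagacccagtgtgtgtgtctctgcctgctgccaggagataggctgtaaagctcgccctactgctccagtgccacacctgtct
Ptcra: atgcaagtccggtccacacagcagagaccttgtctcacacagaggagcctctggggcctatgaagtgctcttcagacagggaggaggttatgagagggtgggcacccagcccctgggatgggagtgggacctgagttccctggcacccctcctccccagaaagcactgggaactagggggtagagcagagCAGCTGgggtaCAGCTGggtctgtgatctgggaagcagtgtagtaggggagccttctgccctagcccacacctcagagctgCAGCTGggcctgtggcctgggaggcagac

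The runs of Myl10 and Gm4632 each held 1 match to GTGGGAA and none to CAGCTG, and the run of Ptcra held 3 matches to CAGCTG and none to GTGGGAA. Among all 32851 promoter runs of that length, 6.38% held GTGGGAA and 16.3% held CAGCTG. Both motifs were picked after these promoters had been read, and a match is a description of the letters.

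In WT the cells held a median of 8249 UMIs and 2711 genes, and in cKO 7683 UMIs and 2532 genes. Mitochondrial UMIs made up a median of 5.59% and 5.53%. The 2 libraries differed in depth over all kept barcodes, with medians of 7882 UMIs in WT and 4854 in cKO. They shared 14 kept barcodes, none of them among these cells. A doublet caller set its threshold at a score of 0.290 in WT and 0.638 in cKO, and 2 cells of each library lay above the WT threshold.

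Setdb1 stood at 35.8 CPM (UMIs summed over the cells and scaled to a common total) in WT and 31.2 in cKO, from 206 and 174 UMIs. The ratio of cKO to WT had an interval of 0.71 to 1.07. Setdb2 stood at 6.77 and 6.63 CPM, from 39 and 37 UMIs. A 3′ tag can lie outside the deleted exons, so neither level checks the genotype.

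The cells made up 8.79% of kept barcodes in WT (8.14 to 9.47%) and 8.60% in cKO (7.97 to 9.26%), with a ratio of cKO to WT of 0.979 (0.876 to 1.09). The share did not differ beyond counting error. The stages on either side were less frequent in cKO. Cells with at least 3 Ptcra UMIs are called Ptcra-high below. The other limits were the same, except that no UMI of Myl10 or Gm4632 was required. Ptcra-high cells were 861 in WT and 485 in cKO, or 12.1% and 6.47%, with a ratio of 0.536 (0.479 to 0.600). Cells with Kit or Cpa3 UMIs, early DN cells, kept the limits on Ptcra, Cd8, Foxp3 and cycle genes, again with no Myl10 or Gm4632 UMI required. They were 606 and 478, or 8.49% and 6.37%, with a ratio of 0.751 (0.664 to 0.848). There were 0.728 Myl10-positive Ptcra-low cells per Ptcra-high cell in WT and 1.33 in cKO. Cells with more than 1 UMI of Cd8a plus Cd8b1 are called Cd8-positive resting below. They kept the limits on Kit, Cpa3, Ptcra, Foxp3 and cycle genes, with no Myl10 or Gm4632 UMI required. These cells, 2228 in WT and 3381 in cKO, took a larger share in cKO, and all shares sum to the same whole.

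Limits on raw UMIs move with depth. When every barcode was first thinned to 2000 UMIs, leaving 6589 in WT and 6301 in cKO, the same limits took 1865 cells (28.3%) and 1555 cells (24.7%), and the ratio was 0.872 (0.815 to 0.933). The ratio was then 0.431 (0.316 to 0.581) for Ptcra-high cells and 0.831 (0.725 to 0.952) for Kit or Cpa3 cells.

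Most cells carried both entry genes well above the limit of 1 UMI. The sum of Myl10 and Gm4632 had a median of 15 UMIs in each library, with quartiles of 9 and 21 in WT and 10 and 22 in cKO. Both genes were present in 538 WT and 570 cKO cells, Myl10 alone in 72 and 67, and Gm4632 alone in 17 and 8. As a background, 4.89% of WT and 5.15% of cKO Cd8-positive resting cells held a Myl10 UMI, at median depths of 2492 and 2263 UMIs. At 2000 UMIs a cell those shares were 3.82% and 4.33%, against 77.0% and 78.4% of the Myl10-positive Ptcra-low cells.

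The group's marker genes had the following summed levels. Myl10 was at 852 CPM in WT and 1128 in cKO, and Gm4632 at 807 and 750.3. Ly6d, a surface protein of early lymphoid cells, stood at 2248 and 2032, Trgc2, a TCR γ constant gene, at 766 and 733, Trdc, the TCR δ constant gene, at 339 and 301, and Notch1 at 452 and 404. Trgc1 and Trgc2 are close copies, and how their reads were split is uncertain. Il2ra was at 441 and 461 CPM and Cd3e, a CD3 chain, at 914 and 894. Trac, the TCR α constant gene of later stages, was at 27.8 and 31.9 CPM, against 786 and 902 in Cd8-positive resting cells.

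**Figure D1:**
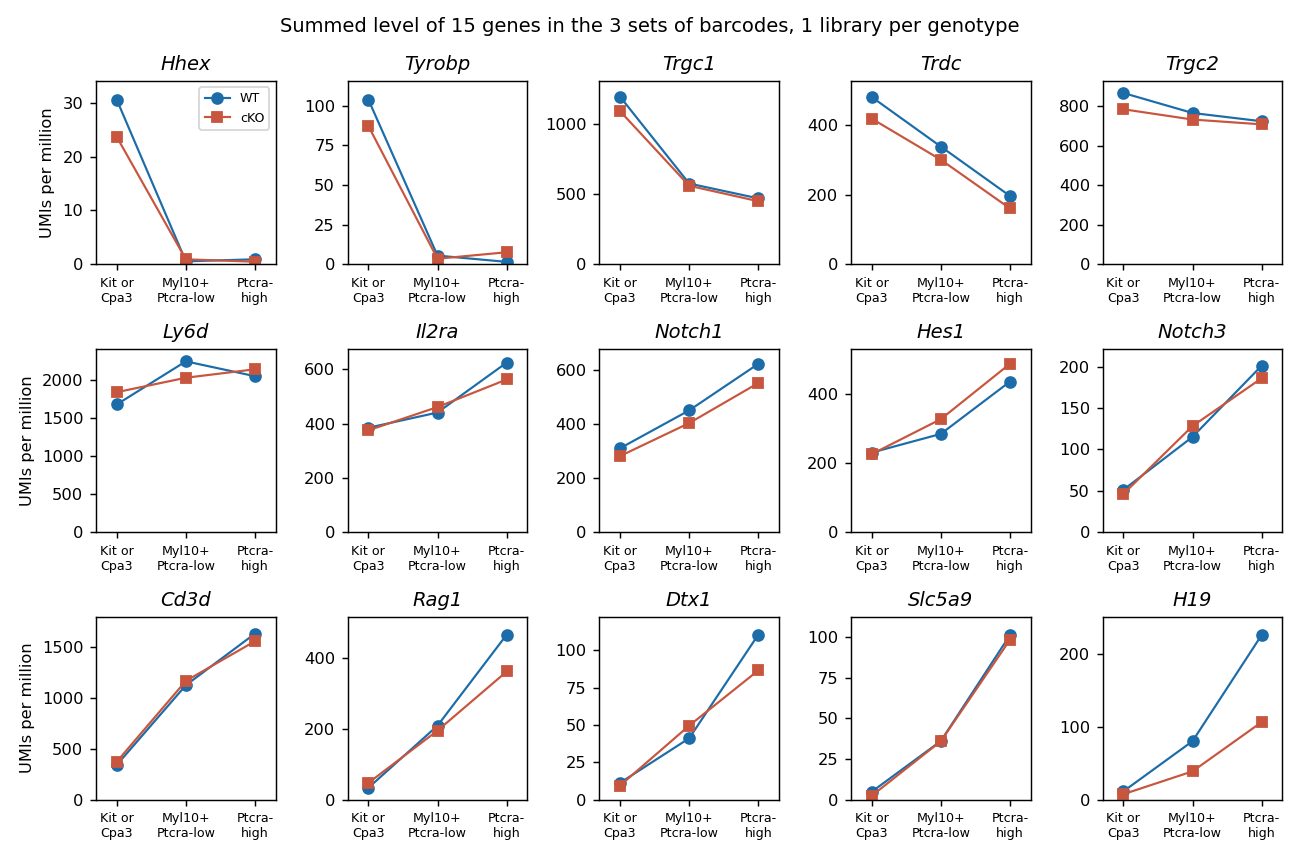
Summed level (CPM) of 15 genes in Kit or Cpa3 cells, Myl10-positive Ptcra-low cells and Ptcra-high cells, with 1 point per library (WT circles, cKO squares) and lines only to guide the eye. Rag1, Dtx1, Slc5a9 and Cd3d lie between the other sets in both libraries, whereas Hhex and Tyrobp are near 0 outside Kit or Cpa3 cells.

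Set beside the neighbouring stages, the cells had summed levels between them for most genes that set those stages apart. This order was described over genes at least 2-fold apart between Ptcra-high and Kit or Cpa3 cells in both libraries, 0.986% of 7706 genes in one direction and 1.69% in the other. Of the 76 genes higher in Ptcra-high cells, the level in the Myl10-positive Ptcra-low cells lay between the 2 sets for 76 in WT and 75 in cKO. The exception in cKO was Lef1, an HMG-box factor of T-lineage cells, at 155 CPM against 127 in Ptcra-high cells and 40.1 in Kit or Cpa3 cells. The median position was 61.0% of the way to Ptcra-high cells in WT and 66.5% in cKO, on the log2(CPM + 5) scale. Of the 130 genes lower in Ptcra-high cells, 109 in WT and 116 in cKO lay between, at median positions of 67.3% and 73.5%. The limits on Ptcra, Kit and Cpa3 themselves place the cells between these stages, so the positions are a description. The sums also cover a mixed set of cells. In clusters of them described below, Rag1 ran from 24.9 to 493 CPM in WT and from 12.4 to 417 in cKO. In Kit or Cpa3 and Ptcra-high cells it stood at 33.6 and 467 in WT and at 47.5 and 363 in cKO.

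**Figure D2:**
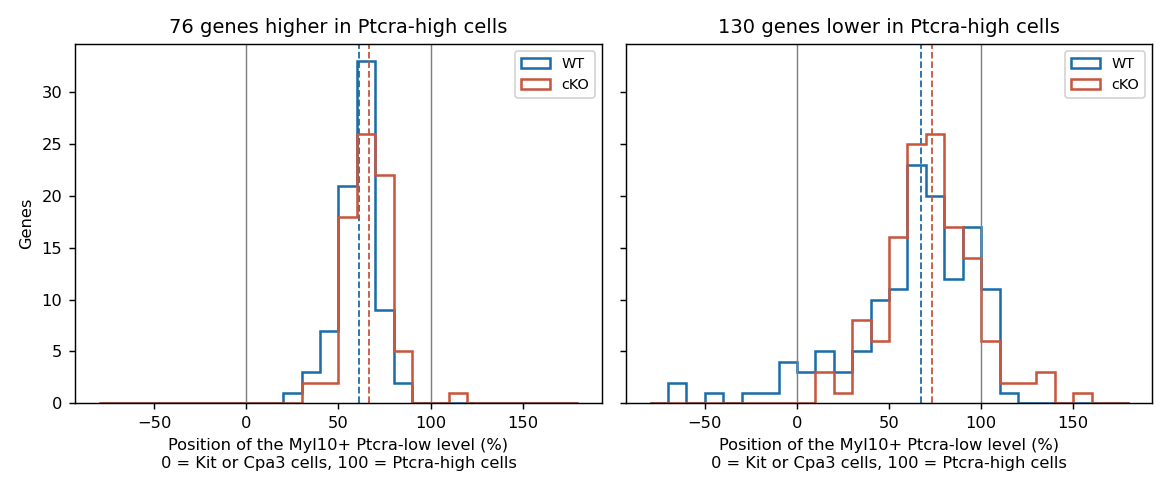
Number of genes by the position of their level in Myl10-positive Ptcra-low cells between Kit or Cpa3 cells (0%) and Ptcra-high cells (100%), for 76 genes higher and 130 genes lower in Ptcra-high cells, with dashed lines at the medians. Most genes lie between 0 and 100% in both libraries, with medians from 61.0% to 73.5%.

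Against Kit or Cpa3 cells, 101 of 10330 genes (0.978%) were at least 1.5-fold higher in both libraries and 255 (2.47%) at least 1.5-fold lower. Of 18 members of an early progenitor list with 20 UMIs, 12 were among the 255 genes lower in both libraries and 0 were higher. The list's median was -1.17 on the log2 scale in WT and -1.16 in cKO, against medians of -0.01 and 0.00 over all genes. The limits on Kit and Cpa3 divide these 2 sets. Differences in genes that go with Kit and Cpa3 thus follow from the choice of cells, and the values are a description. Hhex, a homeobox factor of progenitors, stood at 0.521 CPM in WT against 30.7 in Kit or Cpa3 cells, and at 0.896 in cKO against 23.7. Lyl1, a helix-loop-helix factor, stood at 0.521 and 1.07 against 34.3 and 22.9, and Cd34, a stem cell antigen, had 1 UMI in each library. Tyrobp, a signalling adaptor of innate cells, stood at 5.38 and 3.40 CPM against 104 and 87.2. Tyrobp's remainder was concentrated, since 1 cell held 54.8% of its WT UMIs and 1 cell 52.6% of its cKO UMIs.

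Not all of these early genes were at the floor. Plac8 stood at 1165 CPM in WT and 1036 in cKO, and Igfbp4, a binding protein of insulin-like growth factors, at 12.7 and 7.52 against 107 and 95.8 in Kit or Cpa3 cells. The remaining genes under the naming rule on this side were Ifitm1, Hbb-bt, Adgrg3, 1810073O08Rik and Napsa, all below 5 CPM in both libraries. Hbb-bt is a globin gene that stood at 99.0 and 29.3 CPM in Kit or Cpa3 cells. Of that set, 27 WT and 12 cKO barcodes held a UMI of any of 3 erythroid markers, Hbb-bt among them, and their part in other values was not tested.

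The 10 genes named as highest above Kit or Cpa3 cells were H19, Slc5a9, Pld4, Fam163b, Rag1, Cd3d, Scn4b, Dtx1, Chrna9 and Lef1. Rag1, a subunit of the RAG recombinase, stood at 210 CPM in WT and 196 in cKO, against 33.6 and 47.5 in Kit or Cpa3 cells and 467 and 363 in Ptcra-high cells. Of 11 genes of V(D)J recombination, 2 were 1.5-fold higher in both libraries (0.978% of all genes were), Rag1 and Rag2. Cd3d was at 1123 and 1165 CPM against 340 and 372, and with Cd3e was 1 of 2 genes higher among 23 of the CD3 and proximal TCR signalling list. Lef1 was at 183 and 155 CPM against 69.6 and 40.1.

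Among 27 tested genes of the Notch pathway, 2 were higher than in Kit or Cpa3 cells (0.978% of all genes were), Notch3 and Dtx1, and 0 lower. Notch3, a Notch receptor that is itself a Notch target, was at 115 and 128 CPM against 50.9 and 45.9. Dtx1, an E3 ligase and Notch target, was at 41.1 and 49.6 against 11.3 and 9.46. The list's medians were -0.05 and 0.09, against -0.01 and 0.00 over all genes. Other genes that the rule named here were Slc5a9, a sodium-coupled sugar transporter, at 36.1 and 36.0 CPM against 4.88 and 2.41, Scn4b, a sodium channel subunit, at 20.7 and 27.0 against 3.49 and 3.79, Chrna9, an acetylcholine receptor subunit, at 44.8 and 40.8 against 12.3 and 12.2, and Fam163b at 23.3 and 20.2 against 2.37 and 2.75.

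Against Ptcra-high cells, 54 of 10152 genes (0.532%) were at least 1.5-fold higher in both libraries and 31 (0.305%) at least 1.5-fold lower. The limit on Ptcra divides these 2 sets, so differences in genes that go with Ptcra are likewise a description. On the lower side stood genes that were already above Kit or Cpa3 cells. H19, an imprinted non-coding RNA, was at 80.2 CPM in WT against 226 in Ptcra-high cells, and at 38.9 in cKO against 106. Slc5a9 was at 36.1 and 36.0 against 101 and 98.5. Pld4, an endolysosomal exonuclease, was at 79.7 and 109 against 179 and 210. Arhgef10l was at 16.3 and 14.2 against 47.9 and 33.7. Rag1, Rps6kl1, Fam163b, Hdgfl3, Fam43a and 8030474K03Rik were the others under the rule.

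Of the Notch list, 1 of 27 genes was lower than in Ptcra-high cells in both libraries (0.305% of all genes were). It was Dtx1, which stood there at 111 and 86.6 CPM. Notch1, at 625 and 553 CPM in Ptcra-high cells, Notch3, at 201 and 186, Hes1, at 435 and 486 against 283 and 326, and Il2ra, at 625 and 563, were each higher there in both libraries. They stayed short of 1.5-fold in at least 1 library.

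Across the cells the number of Ptcra UMIs went with the other stage genes. Ptcra is a gene of the rule, so the levels by its UMIs are a description. In WT, 236 cells had no Ptcra UMI, 187 had 1 and 204 had 2, and in cKO 249, 219 and 177. Just outside the limit, 191 WT cells had 3. In WT, Rag1 was at 87.6, 217 and 359 CPM at 0, 1 and 2 Ptcra UMIs and at 393 at 3 UMIs. In cKO it was at 109, 228, 289 and 339 in the same order.

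Notch3 stood at 68.6, 132, 158 and 207 CPM in WT, and at 82.4, 149, 173 and 170.2 in cKO. Hes1, a transcriptional repressor and Notch target, was at 191, 308, 379 and 382 in WT and at 208, 360.5, 465 and 424 in cKO. Trdc ran the other way, at 388, 359, 257 and 236 in WT and at 365, 284, 224 and 148 in cKO. These strata had median depths from 7991 to 8551 UMIs in WT and from 7007 to 8255 in cKO. The cells without Ptcra UMIs were the deepest of them in each library. No step was seen between 2 and 3 UMIs in either library that matched the step from 0 to 1 for Rag1, Notch3 or Hes1. For H19 in WT the step from 2 to 3, from 106 to 217 CPM, was the larger. Trac stood at 60.7 CPM in WT and 72.3 in cKO at 0 Ptcra UMIs, against 7.58 and 4.40 at 1. The part of cells with Trac in the step from 0 to 1 was not tested. Nor was the part of clusters described below that were low in both Ptcra and Rag1.

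**Figure D3:**
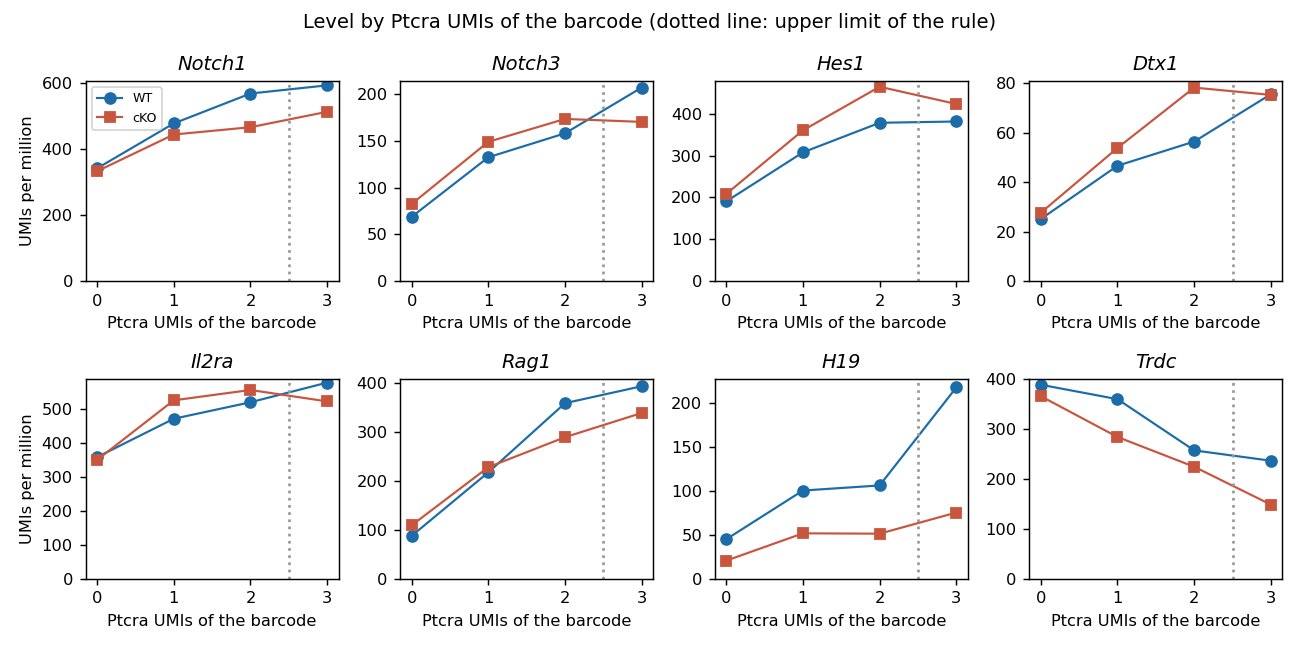
Level (CPM, summed over barcodes) of 8 genes by the number of Ptcra UMIs of the barcode, in WT (circles) and cKO (squares), with a dotted line at the upper limit of 2 UMIs. Rag1, Notch3 and Hes1 are lowest and Trdc is highest at 0 Ptcra UMIs in both libraries.

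The other limits had the following levels on either side. Cells with 1 UMI of Myl10 plus Gm4632, 32 in WT and 29 in cKO, had Trac at 325 and 648 CPM, against 11.2 and 6.34 in cells with at least 2. Cells just outside, with 0 UMIs of both, had Trac at 710.3 and 696 CPM. Cells with 1 UMI of Kit plus Cpa3, outside, had Trdc at 531 and 421 and Rag1 at 68.7 and 139. At 2 cycle gene UMIs, inside, Rag1 was at 119 and 116, and at 3, outside, at 70.6 and 51.6. Cells with 1 Cd8 UMI, inside, had Trac at 115 and 12.5, and the few with 2, outside, at 528 and 103.

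On the upper side of the comparison with Ptcra-high cells, 9 of the 10 named genes had over 50% of their UMIs in each library in 50 barcodes that clustered together. The 10 genes were Cd74, H2-Eb1 and H2-Aa of MHC class II presentation, the homing receptor gene Ccr7, the receptor gene Tnfrsf4, Cd5, Tpm4, Trac, Itm2a and Cd2. In WT, 689 of 705 Cd74 UMIs, 139 of 160 Trac UMIs and 122 of 128 Cd2 UMIs were in 25 of these barcodes. In cKO, 235 of 242, 143 of 178 and 112 of 124 were in the other 25. Tpm4, a tropomyosin gene, was the exception, with 41 of 260 and 26 of 188 UMIs in those barcodes.

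That cluster recurred in 3 other clusterings of the cells, with 50 of its 50 barcodes together each time. In it Trac stood at 571 CPM in WT and 885 in cKO, Il2ra at 181 and 92.9, Ly6d at 279 and 594, and Myl10 at 230.1 and 211. All 6 fixed markers of mature αβ T cells were at least 2-fold above the other cells. So were 3 of 5 B cell, 3 of 7 γδ T cell, 2 of 6 early progenitor and 2 of 5 double-positive markers. On the myeloid and dendritic list and on the NK list 1 of 5 was, and of 11 DN markers 0 were. Its top genes by fold were Cd74, H2-Eb1 and H2-Aa, which are not T cell genes. They were found in 28%, 8% and 8% of its barcodes, against 90% for Trac, 84% for Cd2 and 54% for Ccr7. In WT, 1 barcode held from 95.7% to 98.5% of the UMIs of each of those 3 top genes. The cluster is left without a cell type name. The DN label does not hold for these 50 barcodes.

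Markers of other cells were counted over all 1272 cells. The 3 mast cell markers were at 0 in both libraries, and the 3 erythroid markers had 1 UMI in WT and 0 in cKO. Of the B cell markers, Cd79a, Ms4a1 and Pax5 were at 0 in WT and not in cKO, where 1 barcode held 94 UMIs of the list. Cd79b, at 58.3 and 57.5 CPM, was spread over many cells and stood at 77.0 and 64.4 in Ptcra-high cells. The 6 markers of mature αβ T cells summed to 158 and 181 CPM, against 35.2 and 71.4 in Ptcra-high cells. The 5 myeloid and dendritic markers summed to 299 and 170.1 CPM, with 751 of 1723 WT UMIs in 1 barcode and Siglech at 0 in both libraries. The summed NK and innate lymphoid list stood at 535 and 500 CPM, with Ncr1 at 0 in both, and at 310.2 and 294 in Ptcra-high cells. Apart from the values without such cells given next, the part of these transcripts in the results was not tested. Leaving out 60 WT and 58 cKO cells with at least 2 UMIs of 14 genes of other cells, an alternative chosen after seeing the data, gave 567 and 587 cells. The same limit was put on all kept barcodes, so the sets compared with these cells lost such barcodes too.

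Without those cells, 22 genes were at least 1.5-fold above Ptcra-high cells in both libraries, in place of 54, and the rule for named genes gave other names. Gzma, a granzyme gene found in immature thymocytes as well as cytotoxic cells, had the largest value for the smaller of its 2 folds, at 377 CPM in WT and 381 in cKO against 187 and 204. Tpm4 was at 37.1 and 27.5 against 18.6 and 11.4. Genes of DNA replication were among them, Lig1, a DNA ligase, at 33.6 and 39.0 against 15.7 and 19.9, and Mcm5, a helicase subunit, at 67.2 and 76.0 against 36.3 and 37.4.

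Trdc, at 335 and 296 against 198 and 164, 5830411N06Rik, a gene on the γδ T cell list, at 53.7 and 43.4 against 15.4 and 22.3, the actin bundling gene Lcp1, at 122 and 93.1 against 68.6 and 55.4, the tetraspanin gene Cd53, at 60.0 and 67.8 against 35.4 and 38.6, the tubulin gene Tuba1b and Ppa1 were the rest. Of these 10 genes, 7 were higher still in Kit or Cpa3 cells in both libraries, and Gzma, Tuba1b and Ppa1 were not.

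The limit on cycle genes applied to Ptcra-high cells too, and S phase genes still differed in level. Of 26 S phase genes tested, 3 were at least 1.5-fold above Ptcra-high cells in both libraries, Mcm5, Ung and E2f1, and 0 below (0.532% and 0.305% of all genes were). The list's median was 0.42 in WT and 0.44 in cKO, against -0.02 and -0.01 over all genes. In 95 WT and 72 cKO cells, which formed a cluster, the 10 leading genes by fold included Lig1, Shmt1, Tuba1b, Gmnn and Prim1, with Nrgn and Pdcd1. These cells had a median of 13564 and 13574.5 UMIs, well above the group's medians. Beside its leading genes the cluster had Rag1 at 24.9 and 12.4 CPM, Ptcra at 32.2 and 22.0, Notch1 at 234 and 221, and Trdc at 404 and 376.

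Another cluster, led by Adgrg3, Cst7, Igfbp4 and Trgc1, had Trgc1 at 1385 CPM in WT and 1280 in cKO, close to the levels of 1199 and 1095 in Kit or Cpa3 cells, and Rag1 at 63.6 and 50.8. At the other end, a cluster led by H19, Scn4b, Arhgef10l and Dtx1 had Rag1 at 493 and 417 CPM and Il2ra at 913 and 753. Rasa4 and Bmf, which also differed between libraries, were among the 10 leading genes of the cluster led by H19, so its size is not compared between genotypes. Clusters were formed on the cells' variable genes, and their levels are a description that tests nothing. In all there were 7 clusters, 12 at a finer resolution and 6 with each of 2 other random seeds. Under the other seeds the replication cluster shared 166 and 162 of its 167 barcodes with 1 cluster of 198 and 1 of 166. The cluster led by Adgrg3 did not recur as such there, its 127 barcodes lying mostly within clusters of 389 and 433.

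Of TCR variable segments, those of the γ locus had most UMIs. All Trgv genes stood at 96.7 CPM in WT and 113 in cKO, against 35.0 and 33.4 in Kit or Cpa3 cells and 121 and 137 in Ptcra-high cells. Trgv2 alone had 451 and 503 UMIs. Trbv segments had 65 and 38 UMIs and Trav segments 52 and 35 in all. Trbc1 and Trbc2, the β constant genes, stood at 1958 and 1688 and at 2681 and 2227 CPM, and as close copies may share reads. A 3′ tag reads the end of a transcript, so the few V segment UMIs do not give a rate of rearrangement.

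Between genotypes, 59 of 10364 genes (0.569%) were at least 1.5-fold higher in cKO and 84 (0.810%) at least 1.5-fold lower, with a median over all genes of -0.02 on the log2(CPM + 5) scale. The shares higher and lower in cKO were 0.632% and 0.738% of 10436 genes in Ptcra-high cells, 0.969% and 0.792% of 10736 in Kit or Cpa3 cells, and 0.533% and 0.276% of 10889 in Cd8-positive resting cells. The side lower in cKO held many interferon-stimulated genes, and the higher side held Rasa4, H2-Q7 and Slc15a2 with genes of the glucocorticoid and FOXO response. Lists of the Notch pathway (27 genes tested), TCR constants (7), V(D)J recombination (11), CD3 and proximal signalling (23) and T-lineage transcription factors (30) had 0 genes 1.5-fold higher and 0 lower. At 0.569% and 0.810% of all genes, lists of this size would hold few such genes or none, so these counts say little about the lists. Under the other ways of processing given below, the T-lineage list had from 0 to 3 genes lower. A fold of 1.5 between 2 libraries has no replicate check here.

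Of 49 interferon-stimulated genes with 20 UMIs, 21 were at least 1.5-fold lower in cKO (0.810% of all genes were), 1 was higher and the median was -0.54. The 1 higher gene, Ly6c2, had 22 UMIs, all in 1 barcode. Isg15, a ubiquitin-like modifier, stood at 161 CPM in WT and 50.5 in cKO, a log2 fold of -1.58, from 926 and 282 UMIs. Ifit1, an inhibitor of viral translation, was at 26.0 and 7.34, Irf7, the factor that amplifies interferon signalling, at 36.8 and 12.4, and Ifi27 at 306 and 151. Ifitm3, a membrane protein that limits viral entry and is not on the list, was at 38.4 and 10.4 (log2 -1.49). Ifi47 was at 91.1 and 85.3 (log2 -0.09), so not all of the list was lower to the same degree.

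The folds in the other sets were as follows. The log2 fold of Isg15 was -1.66 in Ptcra-high cells, -1.09 in Kit or Cpa3 cells and -0.39 in Cd8-positive resting cells. For Ifit1 they were -1.48, -0.77 and 0.14. For Ifi27l2a, at 120 CPM in WT and 38.0 in cKO, the fold was -1.54, against -0.61 in Ptcra-high cells and -0.31 in Kit or Cpa3 cells. With the cells thinned to 2000 UMIs before the limits were applied, that fold of -1.54 was -0.57, short of 1.5-fold. For Ifi47 the folds in Ptcra-high and Kit or Cpa3 cells were -0.02 and 0.02. These differences between stages were not tested.

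The level was not even over cells, and 1 of the 7 clusters described above was led by Ifit1, Oasl2, Slfn5 and Isg15. Its size is not compared between the libraries, since the genes that define it differ between them. The part of the clusters in the folds between genotypes was not tested. In each of the 7 clusters the level of Isg15 was lower in cKO, for example 789 against 496 CPM in that cluster and 122 against 25.8 in the replication cluster. With each cell thinned to 2000 UMIs, the 52 genes of the list in the file had a median of 5 UMIs a cell in WT (quartiles 2 and 8) and 3 in cKO (quartiles 2 and 5). At least 20 UMIs were found in 15 of 621 WT cells, or 2.42% (1.36 to 3.95%), and in 3 of 644 cKO cells, or 0.466% (0.0962 to 1.36%). The median and the upper quartile were also lower in cKO, so the 2 libraries differed outside those cells too. In Ptcra-high cells the medians were 5 and 3, and in Kit or Cpa3 cells 5 and 4.

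**Figure D4:**
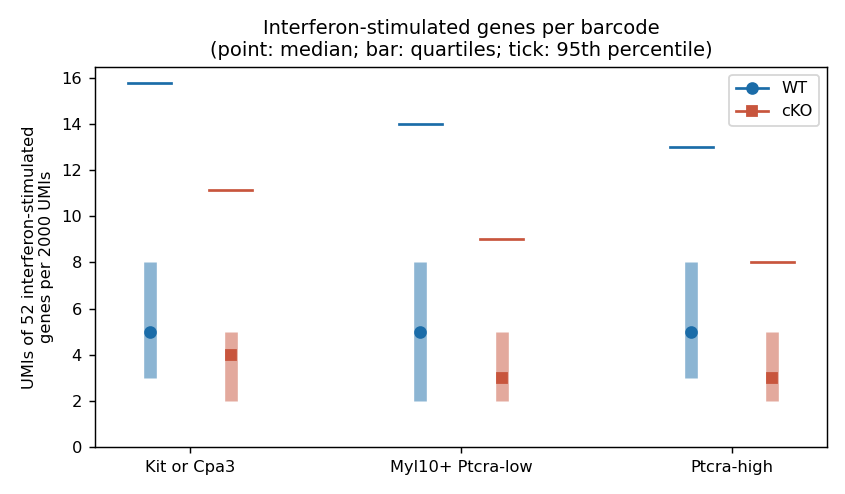
UMIs of 52 interferon-stimulated genes per barcode thinned to 2000 UMIs, in 3 sets of cells and 2 libraries, with points at the median, bars from the lower to the upper quartile and ticks at the 95th percentile. In Myl10-positive Ptcra-low cells the median is 5 in WT and 3 in cKO, and the 95th percentiles are 14 and 9.

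On the side higher in cKO, Rasa4, which encodes a GTPase activator of Ras, had the largest fold, at 5.90 CPM in WT and 33.3 in cKO (34 and 186 UMIs, log2 1.81). It was also a leading gene of the cluster led by H19, whose size is for that reason not compared between genotypes. The part of that cluster in the fold was not tested. Rasa4 was also higher in Ptcra-high cells (log2 1.72), while the values were -0.12 in Kit or Cpa3 cells and 0.02 in Cd8-positive resting cells. H2-Q7, an MHC class Ib gene, stood at 57.3 and 201 CPM (log2 1.73), and at 2.04 in Ptcra-high cells on the same scale. H2-Q7 has close copies, among them H2-Q6, at 5.73 and 20.2 CPM (18 of 33 WT UMIs in 1 barcode), and reads may be split among them. Slc15a2, a peptide transporter gene, was at 6.77 and 30.4 CPM (log2 1.59), with folds from 1.18 to 1.77 in the other sets.

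Tsc22d3, the glucocorticoid-induced leucine zipper gene, was at 104 and 235 CPM (log2 1.14), with folds from 1.10 to 1.25 in the other sets. Ssbp4 was at 53.1 and 124 (log2 1.16), Ddit4, an inhibitor of mTORC1, at 12.7 and 31.0 (log2 1.03), Cish, a cytokine signalling inhibitor, at 15.8 and 37.1 (log2 1.02), and Sap30, a subunit of the SIN3 deacetylase complex, at 66.7 and 136 (log2 0.97). Of a list of 12 genes raised in cKO across stages, 8 were at least 1.5-fold higher and 0 lower, with a median of 0.93. That list had been drawn from these same 2 libraries, so its count is no separate evidence.

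Of 19 glucocorticoid and FOXO response genes, 6 were 1.5-fold higher in cKO (0.569% of all genes were) and 0 lower, with a median of 0.32 against -0.02 over all genes. The 6 were Tsc22d3, Ddit4, the clock gene Per1 at 49.3 and 93.3 CPM, Txnip, a thioredoxin inhibitor, at 56.6 and 92.1, Irs2, and Klf2, a trafficking factor, at 15.5 and 33.9. Thinned to 2000 UMIs, Irs2 and Txnip were at log2 0.18 and 0.53, short of 1.5-fold. Of the Klf2 UMIs, 46 of 89 in WT and 100 of 189 in cKO lay in the 50 barcodes with mature T cell genes. In the BCL2 family, 14 genes tested, Bcl2, which blocks apoptosis, was at 183 and 340.5 CPM (log2 0.88) and Bmf, a BH3-only protein that promotes it, at 14.1 and 31.7 (log2 0.95). The 2 that were lower, Bcl2a1b and Bcl2a1d, had 116 of 117 and 91 of 93 WT UMIs in the barcodes with mature T cell genes. Of 14 genes of the IL-7 pathway, Cish and Bcl2 were higher.

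Of 24 genes of the H3K9 methylation and HUSH list, to which the SETDB genes belong, 1 was higher and 0 were lower. Over all genes, 0.569% were higher and 0.810% lower. The 1 higher gene was Resf1, a partner of SETDB1, at 83.9 and 131 CPM (log2 0.62, and 0.43 when thinned to 2000 UMIs). Among heat-shock genes, 22 tested, Hsph1, an HSP110 chaperone, was lower at 55.6 and 29.0 CPM (log2 -0.83). Nfkbia, the NF-κB inhibitor, was higher at 55.0 and 95.5 (log2 0.74), and Hspa1a and Hspa1b, close copies, were the others that were higher, while 35 of 38 cKO UMIs of Hspa1a were in 1 barcode. H19 was at 80.2 and 38.9 CPM (log2 -0.96), and its fold was -1.05 in Ptcra-high cells and -0.39 in Kit or Cpa3 cells. Sox4, a factor of immature T cells, was at 899 and 603 CPM (log2 -0.57), just short of 1.5-fold.

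**Figure D5:**
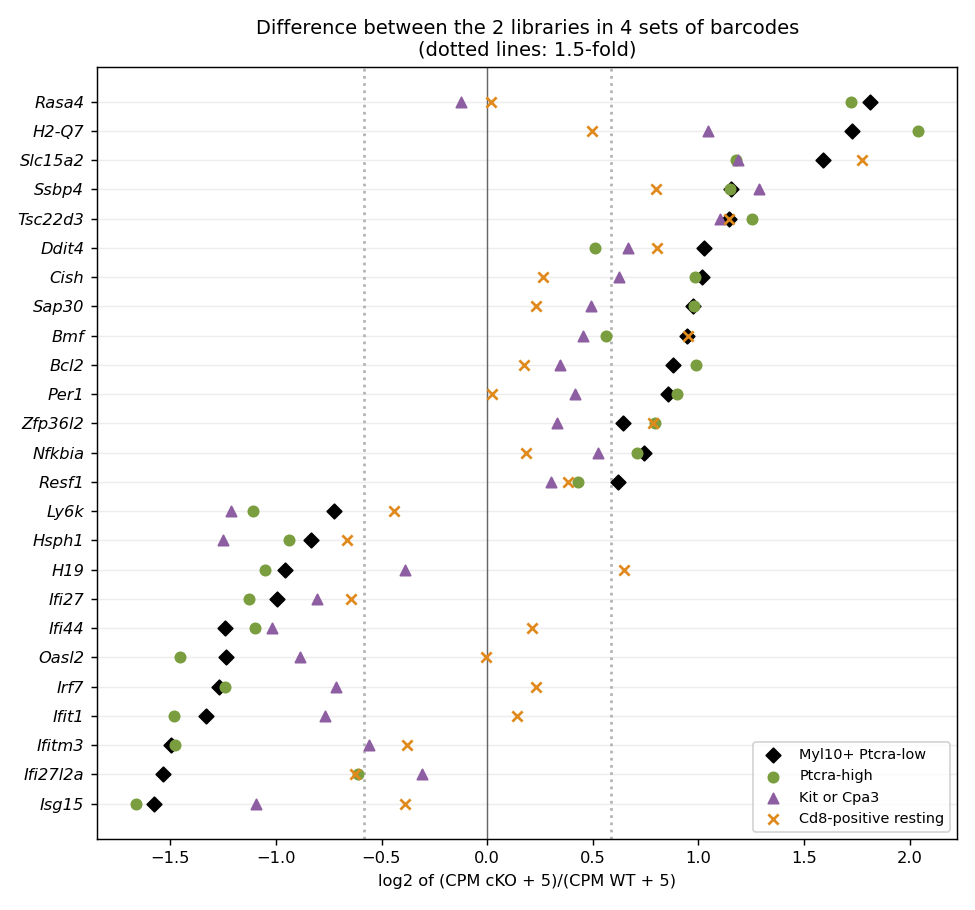
Log2 of (CPM cKO + 5)/(CPM WT + 5) for 25 genes in Myl10-positive Ptcra-low cells (diamonds) and in 3 other sets, 1 library a genotype, with dotted lines at 1.5-fold. Rasa4 is past the line in the 2 sets of later DN cells and near 0 in the other sets, and Isg15 is past it in all 3 DN sets.

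Several genes that the naming rule placed at the extremes rested on 1 barcode. Clu had 110 UMIs in WT, all in 1 barcode, and 0 in cKO, where a count of 0 allows up to 3 UMIs. Of the Ccl5 UMIs, 1 barcode held 79.0% of 267 in WT and 1 held 93.9% of 49 in cKO. For Fscn1 (126 and 13 UMIs), Penk (131 and 27), Cd74 (705 and 242) and H2-Eb1 (327 and 103) the top barcode held from 93.9% to 98.5% in WT. Nrgn had 24 and 77 UMIs, with 41.7% and 45.5% in 1 barcode. Genes at 0 in one library and at 20 or more UMIs in the other were, beside Clu, Il1r2, Lgals3 and H2-M2 in WT and Cd79a, Iglc3 and Ly6c2 in cKO. One barcode held all their UMIs, except for Lgals3, where it held 79.4%.

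Without the 60 and 58 cells that carried transcripts of other cells, the 10 genes lowest in cKO were Ifi27l2a, Isg15, Ifitm3, Ifit1, Irf7, Ifi44, Oasl2, Rsad2, Scin and Ifi206. Scin, an actin-severing protein gene, was at 44.2 CPM in WT and 16.1 in cKO (log2 -1.22), with folds of -1.13 in both Ptcra-high and Kit or Cpa3 cells. The 10 highest were H2-Q7, Rasa4, Slc15a2, Ssbp4, Cish, Tsc22d3, Sap30, Ddit4, Snhg9 and Gpr65. Snhg9, a non-coding RNA gene, was at 24.7 and 53.5 CPM, and Gpr65, a proton-sensing receptor gene, at 29.4 and 60.7. In that set no single barcode held over 20.8% of the UMIs of any of these 20 genes in either library.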

How the data were processed

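The authors deposited 1 matrix of whole-number UMI counts per gene and barcode for each of 2 libraries (7852 barcodes and 89370968 UMIs in WT, 8461 and 76668166 in cKO). Per the submitters' processing notes, CASAVA 1.8, Cell Ranger 6.1.1 and Seurat 4.0.3 were used. No source used here names the build behind the counts. In Python 3.11.15 with scanpy 1.11.5, barcodes were filtered as the report states, doublets were scored with scrublet at an expected rate of 0.06 and were left in, and counts were summed over cells per library and scaled to CPM. Folds are log2(CPM + 5) differences over genes with at least 20 UMIs, and code for them was tested on simulated data. With 1 library a genotype no test was possible. Cells were clustered by the Leiden method (python-igraph 0.11.9) on 1000 variable genes, without the genes of the rule, S and G2/M phase lists and TCR segments.

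Named genes were those of the rule and markers, the 10 highest and 10 lowest per comparison with at least 100 UMIs, genes at 0 in 1 library, and up to 6 per list. For genes with 40% or more of their UMIs in 1 barcode of a library, the report gives no fold between genotypes and the alternatives were not compared for it, a choice made after the values were seen. Such genes stay in the counts of genes, and 4 are given with folds among the results for a closer look. The cells and lists were chosen with earlier results of these data known.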

Additional observations from a re-analysis of the deposited data

Results flagged for a closer look

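For 4 named genes, the difference between libraries in Myl10-positive Ptcra-low cells ran against that in Kit or Cpa3 cells, and the difference between the sets was not tested. For Ccl5, a chemokine gene, the log2 values of cKO against WT were -1.90 and 1.12. For Bcl2a1d they were -1.16 and 1.17, and for its paralogue Bcl2a1b -0.99 and 0.62; the 2 genes are close copies. For Cst3, the cystatin C gene, they were -0.83 and 0.65. Single barcodes held much of these UMIs in the first set: 79.0% of the WT Ccl5 UMIs, 64.5% of Bcl2a1d, 66.7% of Bcl2a1b and 47.0% of Cst3. Such shares were not measured for these genes in Kit or Cpa3 cells. There, 1 cKO barcode held 740 of 2968 UMIs of the 5 myeloid and dendritic markers, of which Cst3 is 1.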

How the results depend on the processing

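No paired analysis was possible because each genotype has 1 library, and none could be left out. Of 119 gene folds, 105 had no change of sign under the 16 alternatives and 14 did, 7 of them short of 1.5-fold as reported (between genotypes, Ptcra, Cd8a, Top2a, Mki67, Ube2c, Setdb1 and Setdb2). The 119 include folds of the rule's genes, and Kit, Cpa3 and Foxp3, held at 0 by the limits, had no sign to change. Pseudocounts of 1 and 10 and other limits on the UMIs of a gene could not change a sign, so the count is a description. Of the alternatives, 2 (leaving out other-cell barcodes, and Ptcra at most 250 CPM) were chosen after seeing the data. A first form of the other-cell alternative, on all fixed markers, took in 592 of 627 and 593 of 645 cells and was dropped. Genes higher in cKO numbered 179 at Ptcra 0, 254 at a pseudocount of 1 and 34 at 10, and genes lower 200, 290 and 43. Genes above Ptcra-high cells numbered 369 and 130 after thinning to 2000 and 3000 UMIs, 98 at Ptcra at most 1, 194 at Ptcra 0, 23 with 2 or more UMIs of Myl10 plus Gm4632, 124 and 27 at pseudocounts of 1 and 10, 22 without other-cell barcodes and 113 with Ptcra scaled to depth. Genes below them numbered 167 and 86 after thinning, 61 and 172 at the Ptcra limits, 86 at a pseudocount of 1, 19 with mean per-cell CPM and 80 with Ptcra scaled. Genes above Kit or Cpa3 cells numbered 191 at 2000 UMIs, 54 at Ptcra 0 and 187 at a pseudocount of 1, and genes below 414 and 167 at 1 and 10. The share ratio was 0.872 at 2000 UMIs. It was 1.12 without other-cell barcodes, which were taken out of all kept barcodes, so that the whole behind the share changed as well. Resolution 1.0 gave 12 clusters. Interferon-stimulated genes 1.5-fold lower ranged from 16 to 28 of the list. Among folds past 1.5, the sign changed for Cd81 between genotypes (0.40 at 2000 UMIs) and, against Ptcra-high cells, Tnfrsf4 (WT -0.047 at 2000 UMIs; with at least 2 UMIs of Myl10 plus Gm4632, WT -0.14 and cKO -0.094), Trac (cKO -0.64), Itm2a (cKO -0.34) and Cd2 (cKO -0.77) with that limit, and Trac (WT -0.10) without other-cell barcodes. The causes were not tested, and no depth makes up for the single library.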
